A study of Rattus norvegicus with 6 samples.

Results

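The HOX genes of RA-FLS from the rat (fibroblast-like synoviocytes, which line the joint and drive much of the damage in rheumatoid arthritis) were compared between the TNF-α and TNF-α+EMO groups. They were taken as every protein-coding row whose gene name is Hox, a cluster letter from a to d and a paralog number, which gave 43 of the 34156 deposited rows and 37 gene symbols. RNA of a wild-type rat RA-FLS cell line was sequenced in 6 libraries. In 3 of them the cells had received 10 ng/mL TNF-α, the inflammatory cytokine, and in the other 3 they had received 10 ng/mL TNF-α together with 80 μmol/L emodin (EMO), an anthraquinone of rhubarb root. TNF-α was thus present in both groups, and no untreated library was analysed here. All cells are 1 line, so the libraries do not sample different animals or joints. The labels give day 5 and the study's methods give 24 h of treatment.

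HOX genes encode homeodomain transcription factors and lie in 4 clusters, in which the order of the genes along the chromosome follows the order of the body regions where they act in the embryo. Low paralog numbers act mainly in the hindbrain and neck and middle numbers in the trunk. High numbers act from the thoracic to the lumbosacral region and, in clusters a and d, in the limb. Fibroblasts keep much of this pattern in culture, and synovial fibroblasts of different joints carry different HOX combinations, so the set of expressed HOX genes is often read as a positional code. HOX proteins bind DNA together with TALE homeodomain cofactors of the PBX, MEIS and PKNOX families.

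The HOXD cluster shows most compactly how neighbours differed. Hoxd13, a digit patterning gene, and Hoxd9, a gene of hindlimb motor neurons and the proximal limb, were each close to the same level in both groups. Hoxd11, needed for the forearm and lower leg, had lower counts with EMO, and Hoxd8, a trunk gene directly beside Hoxd9, had higher counts. The 250 bases before the annotated start of these 4 genes are given from RefSeq on GRCr8, a later build than the Rnor_6.0 build of the deposited coordinates, all on the plus strand. They lie at chr3:79977827-79978076 (Hoxd13), chr3:79992144-79992393 (Hoxd11), chr3:80007756-80008005 (Hoxd9) and chr3:80014973-80015222 (Hoxd8). Capitals mark matches to any of 6 motifs searched on both strands.
Hoxd13: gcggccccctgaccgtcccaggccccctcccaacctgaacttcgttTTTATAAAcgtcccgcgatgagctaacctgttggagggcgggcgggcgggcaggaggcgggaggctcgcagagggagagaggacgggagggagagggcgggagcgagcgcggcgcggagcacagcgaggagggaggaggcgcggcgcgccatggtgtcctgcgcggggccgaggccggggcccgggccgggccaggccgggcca
Hoxd11: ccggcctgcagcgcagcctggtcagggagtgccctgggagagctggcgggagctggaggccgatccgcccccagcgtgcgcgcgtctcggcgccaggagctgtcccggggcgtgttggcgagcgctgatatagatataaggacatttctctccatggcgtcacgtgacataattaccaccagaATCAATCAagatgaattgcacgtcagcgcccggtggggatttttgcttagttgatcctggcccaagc
Hoxd9: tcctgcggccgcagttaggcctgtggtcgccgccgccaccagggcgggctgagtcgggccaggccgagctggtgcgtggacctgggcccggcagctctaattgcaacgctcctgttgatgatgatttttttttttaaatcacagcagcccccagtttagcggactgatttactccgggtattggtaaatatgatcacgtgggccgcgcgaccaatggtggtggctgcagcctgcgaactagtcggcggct
Hoxd8: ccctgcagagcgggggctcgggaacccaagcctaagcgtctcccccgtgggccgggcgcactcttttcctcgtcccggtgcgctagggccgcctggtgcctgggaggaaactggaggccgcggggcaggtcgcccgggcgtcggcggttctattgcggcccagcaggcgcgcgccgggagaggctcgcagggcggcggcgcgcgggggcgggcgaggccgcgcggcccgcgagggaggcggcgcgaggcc

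The capitals in Hoxd13 are the TATA box letters TATAAA on both strands, overlapping at 204 and 202 bases before the start, a motif that 12.9% of all 33469 rat promoters of this length held. Hoxd11 held the HOX-PBX motif TGATTNAT on the minus strand, 67 bases before the start, which 2.82% of all promoters held. Hoxd9 and Hoxd8 held none of the 6. The other motifs were MEIS (TGACAG, 15.8% of promoters), CDX (TTTATNG, 10.1%), the retinoic acid receptor half-site (AGGTCA, 14.1%) and AP-1 (TGANTCA, 6.34%). RefSeq gave 21 promoters of 20 HOX symbols, of which Hoxa6 is not among the 37 symbols of the members. Hoxb1 was the only HOXB gene with a promoter, so that of Hoxb9 was not searched. Of the 21 promoters, 4 held the TATA box, 3 MEIS and 3 the retinoic acid receptor half-site. HOX-PBX and CDX were found in 2 each and AP-1 in 0. The 21 HOX promoters held a median of 20 CpG dinucleotides and 60.0% G and C, against 5 and 51.2% over all promoters. A match describes letters only, and the motif search was not tied to any binding measurement.

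The libraries held 16813322 to 17794455 counts. The labelled cell type was checked against 14 synoviocyte and fibroblast markers, of which 13 were found. Vim and Col1a1, both general mesenchymal genes, had at least 30071 and 3554 counts in each library. The lining marker Prg4 was at 3 to 4 counts with TNF-α and at 0 in all libraries with EMO, Thy1 at 3 to 7 and 0, and Pdpn at 0 to 1 and 0. Of the 9 of these markers tested, 8 were called lower with EMO, beside 27.8% of all genes (median log2 fold change -4.91 over the 9). The summed normalized counts of the 13 markers went from 218569–240366 to 39983–43425. Summed normalized counts of the lists for other cell types follow, each over few genes tested. Of the members called, Itgam and Cldn4 passed the filter through the EMO libraries alone, and Acta2, Sox9 and Vwf through the TNF-α libraries alone. The filter thus favoured these calls, and they are no support for a shift of a list. The macrophage list summed to 1203–1307 and 747–818, with Cd163 at 0 and Cd14 at 1055 to 1163 and then 451 to 536 counts. Of its 3 genes tested, Itgam was higher and Cd14 lower, and the median log2 fold change of the 3, 0.75, went against the sum. The epithelial list summed to 9950–10806 and 1984–2333, with Epcam at 0. Of its 2 genes tested, Krt8 was lower and held nearly all of the sum, and Cldn4 was higher, from 0 in every TNF-α library to 16, 17 and 28 counts. The mural list (854–937 and 57.8–69.3, Rgs5 at 0) had 2 of 3 genes tested lower, Acta2 and Myh11, and the chondrocyte list (462–545 and 6.14–8.25, Acan at 0) had its 1 gene tested lower, Sox9. The endothelial list summed to 70.2–76.5 and 16.3–22.7 with Kdr at 0 and its 1 gene tested, Vwf, lower, and the skeletal muscle list was at 2 counts or fewer per gene in every library. The part of these shifts in the HOX results was not tested, and in bulk RNA fewer cells of a type and less RNA per cell cannot be told apart.

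The expressed HOX code overlapped largely but not fully between the groups. A member was counted as expressed where each library of a group held at least 10 counts. By this rule 23 members were expressed in the TNF-α group and 22 in the TNF-α+EMO group, and 21 were expressed in both. These 21 are 91.3% of the 23, beside 89.4% of all 12860 rows expressed with TNF-α, and 95.5% of the 22, beside 95.2% of the 12086 expressed with EMO. The share kept was therefore near that of all genes. The code common to both groups was Hoxa11, the 9 genes of cluster b other than Hoxb1, the cluster c genes Hoxc4, Hoxc5, Hoxc6, Hoxc9 and Hoxc10, and the cluster d genes Hoxd4, Hoxd8, Hoxd9, Hoxd10, Hoxd11 and Hoxd13.

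The 3 members expressed in one group alone had low counts in the other. Hoxd3 (chromosome 3, 61658245 to 61670282), a gene of the upper neck vertebrae, had 47, 34 and 54 counts with TNF-α and 8, 16 and 13 with EMO. Hoxc8, which acts in the brachial and thoracic region, had 36, 20 and 15 counts and then 9, 13 and 10. Hoxa4, a gene of the neck, went the other way, with 3, 2 and 7 counts and then 10, 18 and 17, and it passed the filter for testing through the EMO libraries alone. No member was expressed in one group and at the floor of 3 counts or fewer in every library of the other, beside 3.80% of rows expressed with TNF-α and 1.41% of those expressed with EMO. Hoxd12, a distal limb gene, came nearest, with 7, 15 and 9 counts and then 3, 0 and 0, too few to be tested. Without TNF-α+EMO replicate 1, the library with the lowest count of both, Hoxd3 and Hoxc8 also met the rule with EMO, and 23 members were shared.

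Other limits moved the edge of the code. With at least 4 counts per library, 25 and 24 members were expressed and 23 were shared, the members on one side being a scaffold row of Hoxa13 and Hoxd12 with TNF-α and Hoxa4 with EMO. With at least 50 counts, 19 and 15 were expressed and 14 were shared. Hoxb5, Hoxb8, Hoxc5, Hoxc9 and Hoxd11 then stood with TNF-α alone and Hoxb13 with EMO alone. CPM (counts scaled to the TMM library size) per kilobase of gene length gave a last limit. At 1 or more, all 18 members expressed with EMO were among the 21 expressed with TNF-α, which also held Hoxa11, Hoxb5 and Hoxc5.

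The silent end of the code was the same in both groups. Hoxb1 and Hoxd1, the most anterior genes of their clusters, and Hoxc11 and Hoxc12, from the posterior end of cluster c, had 0 counts in all 6 libraries. Hoxc13, a hair and nail gene beside them, had 0 to 2. A count of 0 in a library allows up to 3 counts at this depth, for counting error only. In all, 10 of the 43 rows were at 0 throughout and 14 were at the floor in every library, 9 of them rows of HOXA genes.

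**Figure D1:**
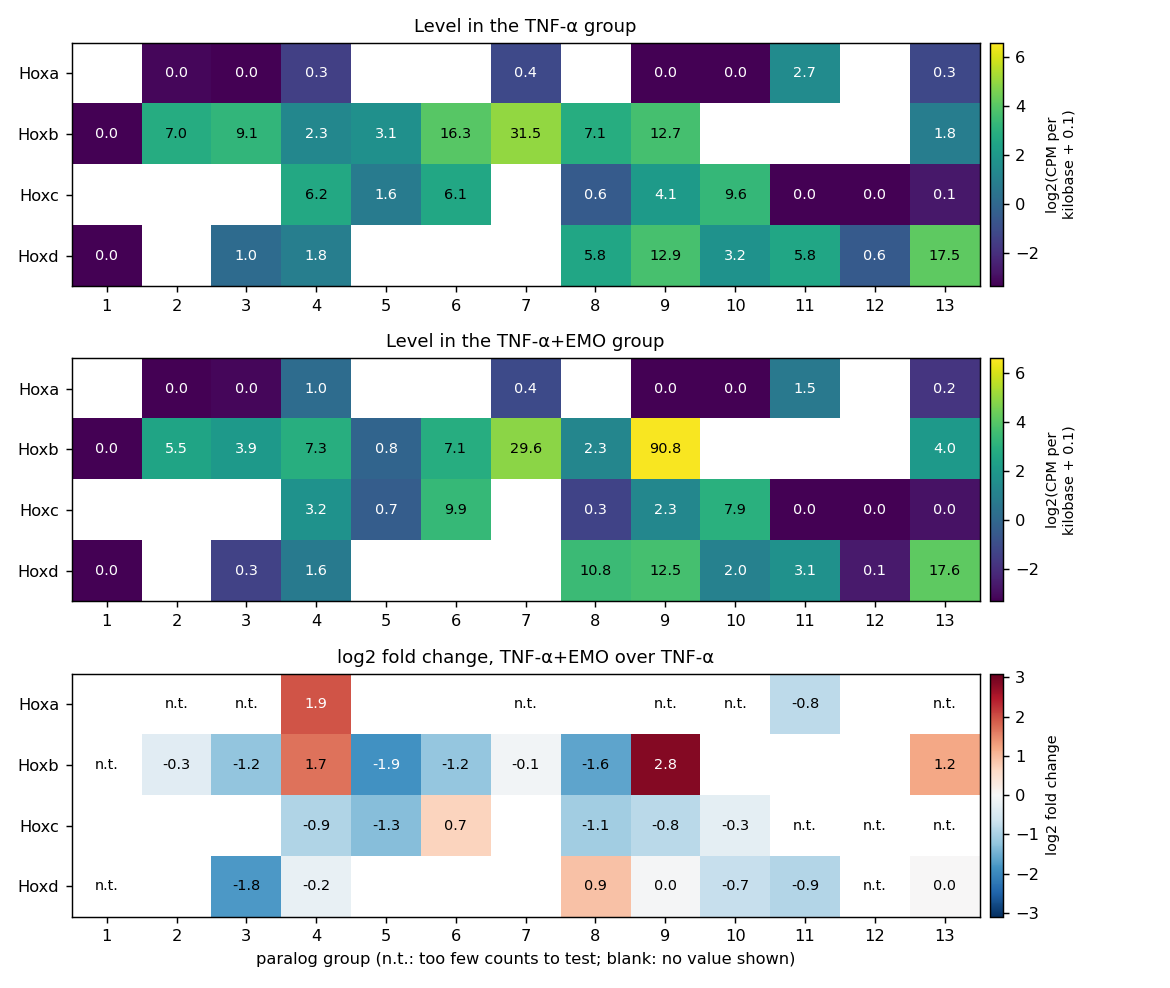
Level of each HOX gene by cluster (rows) and paralog group (columns) in the TNF-α group (top) and the TNF-α+EMO group (middle), as mean CPM per kilobase over 3 libraries on a log2 colour scale, and the log2 fold change between them (bottom, n.t. for not tested). Not every gene is shown, and where a HOXA symbol has several member rows, the one with the larger count is drawn. Rows named otherwise are not drawn. Hoxa3, Hoxa9 and Hoxa10 thus appear at or near 0, although such rows of these genes held counts. Hoxb9 went from 12.7 to 90.8, while Hoxd13 was at 17.5 and 17.6.

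Of the 43 rows, 24 held at least 10 counts in at least 3 libraries and were tested with edgeR's quasi-likelihood test, adjusted by Benjamini-Hochberg over all 13614 genes. A gene was called where its adjusted p was below 0.05 and its log2 fold change above 1 or below -1. In all, 11 were called, 4 of them higher and 7 lower with EMO. That is 45.8% of those tested, beside 47.3% of all genes (19.5% higher and 27.8% lower), so the share of HOX genes called was near the background. The 4 higher include Hoxa4, which passed the filter through the EMO libraries alone. Clusters b, c and d, which leave it out, gave 3 higher and 7 lower of 22 tested (45.5%). Without the fold limit 18 of the 24 passed, 6 higher and 12 lower, beside 80.9% of all genes. The groups did not overlap for 19 of the 24, beside 82.9%. The median log2 fold change of the 24 was -0.53, against -0.01 over all genes, and went to -0.32 without TNF-α replicate 1. The median size of the change was 0.92, against 0.96 over all genes.

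**Figure D2:**
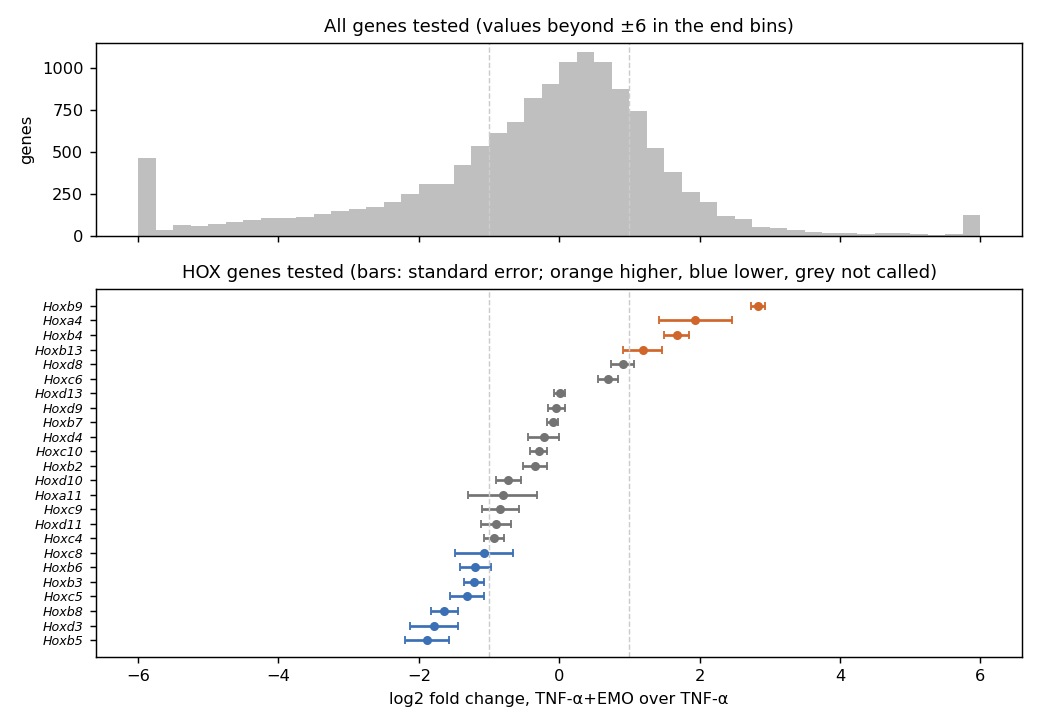
Log2 fold change of TNF-α+EMO over TNF-α for all 13614 genes tested (top, number of genes per bin of 0.25) and for the 24 HOX genes tested (bottom, points with the standard error as bars). Dashed lines mark a log2 fold change of 1 in either direction. The HOX genes spread from -1.88 (Hoxb5) to 2.84 (Hoxb9), within the spread of all genes.

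The calls were also counted by paralog class, from posterior to anterior. Of the 9 members of paralog groups 9 to 13 tested, 2 were higher (Hoxb9 and Hoxb13) and 0 lower. Of the 12 in groups 4 to 8, 2 were higher and 5 lower. The 2 include Hoxa4, which passed the filter through the EMO libraries alone. Of the 3 in groups 1 to 3, 2 were lower (Hoxb3 and Hoxd3) and 0 higher. The median log2 fold changes of these classes were -0.29, -0.58 and -1.22. Beside them stand 19.5% higher and 27.8% lower over all genes, and the posterior class, with 22.2% called, all higher, is near the first of these. At the adjusted p without the fold limit, the posterior class had 2 members higher and 4 lower, so its 0 lower holds only with that limit. It also rests on the member names and the main settings. Hoxa10, whose counted row is no member by name, had a log2 fold change of -2.73 with its rows summed (edgeR adjusted p = 0.0033). Among the alternatives, Hoxd11 was called lower with library totals only, Hoxc9 without TNF-α+EMO replicate 1 and Hoxa11 without TNF-α+EMO replicate 3. The difference between the classes was not tested.

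Hoxb9 stood apart from the other members. It patterns the thoracic region and lies at chromosome 10, 84119884 to 84123390. It had 229, 189 and 210 counts with TNF-α and 1304, 1469 and 1509 with EMO. Each EMO library thus held more than every TNF-α library, by a wide margin. The normalized count rose from 204 ± 20.2 to 1462 ± 103 (SD, n = 3 each), which is 2.84 on the log2 scale (standard error, SE, 0.10, edgeR adjusted p = 5.2e-10), or 7.14-fold. Its share of all HOX counts went from 4.27–4.98% to 27.7–29.6%.

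The next genes toward the anterior end of the cluster did not rise with it. Hoxb8 (84131495 to 84133246), a trunk gene also known from blood and microglial cells, starts 8104 bases beyond the end of Hoxb9. It had 120, 121 and 122 counts and then 41, 35 and 35, with no overlap. It fell with a log2 fold change of -1.64 (SE 0.19, adjusted p = 1.4e-05). The ratio of Hoxb9 to Hoxb8 within a library accordingly went from 1.56–1.91 to 31.8–43.1. Hoxb7, the next gene and the most abundant HOX gene per length with TNF-α, had 751, 715 and 724 counts and then 601, 672 and 685. Its log2 fold change of -0.09 (95% interval -0.27 to 0.08, adjusted p = 0.30) was not called, and the normalized values of the groups overlapped.

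Hoxb9 also parted from its own paralogs, the genes of the same number in other clusters. Hoxd9 had 463, 413 and 345 counts and then 361, 404 and 367, a log2 fold change of -0.04 (95% interval -0.30 to 0.22). Hoxc9 had 63, 57 and 79 counts and then 44, 31 and 31, a log2 fold change of -0.84 (SE 0.26). That passed the adjusted p at 0.011 but not the fold limit, which it passed only without TNF-α+EMO replicate 1 (-1.04). Without TNF-α replicate 3 its adjusted p was 0.053. The ratio of Hoxb9 to Hoxd9 went from 0.458–0.609 to 3.61–4.11.

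The other members called higher had lower counts than Hoxb9. Hoxb4 (chromosome 10, 84167331 to 84169907), which is used to expand blood stem cells, had 79, 69 and 66 counts and then 237, 175 and 239. The groups lay far apart, with a log2 fold change of 1.67 (SE 0.18, adjusted p = 5.3e-06). Its flanking genes Hoxb5 and Hoxb3 both fell, so the ratio of Hoxb4 to Hoxb5 went from 0.697–1.25 to 9.19–10.9. Hoxb13, the most posterior gene of the cluster, active in the tail bud and prostate, had 56, 34 and 35 counts and then 77, 78 and 118. It rose by a log2 fold change of 1.19 (SE 0.28, adjusted p = 0.0022), and without TNF-α+EMO replicate 3 the fold change was 0.96 and the call was lost. Hoxa4 had a log2 fold change of 1.94 (SE 0.53) at the low counts given above. It passed the filter through the EMO libraries alone, which favoured a call of higher, so no test is given for it.

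The 7 members called lower came from the anterior and middle paralog groups. In groups 9 to 13, 4 members were also lower at the adjusted p, but short of the fold limit. Hoxb5, which positions the shoulder, had 96, 99 and 53 counts and then 22, 16 and 26. It had the lowest fold change of the 24, a log2 value of -1.88 (SE 0.32, adjusted p = 2.2e-04). Hoxd3 fell by 1.79 on the log2 scale (SE 0.34, adjusted p = 5.6e-04). Hoxb3, a hindbrain and neck gene, had 365, 344 and 315 counts and then 115, 140 and 165. All of its EMO libraries lay under every TNF-α library, with a log2 fold change of -1.22 (SE 0.15, adjusted p = 1.4e-05). Hoxc5, a gene of the neck and upper trunk, had 94, 73 and 68 counts and then 34, 26 and 30, a log2 fold change of -1.31 (SE 0.24, adjusted p = 4.7e-04). Mir615, a microRNA row inside Hoxc5, was at 0.

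The calls of Hoxb6 and Hoxc8 depended on single libraries. Hoxb6, a trunk gene, had 182, 222 and 177 counts and then 82, 56 and 104, a log2 fold change of -1.19 (SE 0.22, adjusted p = 4.2e-04). Without TNF-α+EMO replicate 2 it was -0.99, past the adjusted p but not the fold limit. Hoxc8 had a log2 fold change of -1.07 (SE 0.41, adjusted p = 0.033). It was -0.64 without TNF-α replicate 1, its highest library, and -0.98 without TNF-α+EMO replicate 1, both with the call lost. It was also lost with DESeq2 (adjusted p = 0.068) and with the replicate number as a block (adjusted p = 0.071).

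**Figure D3:**
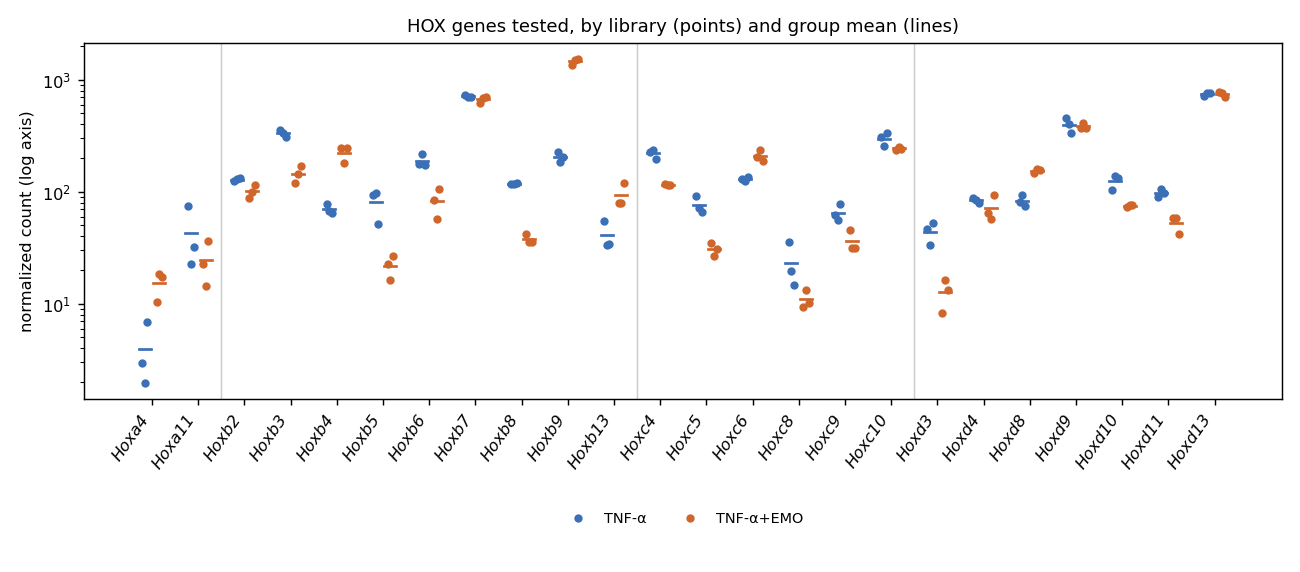
Normalized counts of the 24 HOX genes tested in each of the 6 libraries (points, log axis), with group means as lines and vertical lines between clusters a, b, c and d. The 3 Hoxb9 values with EMO lie above every other HOX value, while the Hoxd13 values of the groups, around 746 and 749, cover each other.

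In cluster d, 6 of the 7 genes tested had a log2 fold change between -1 and 1. Hoxd13 (chromosome 3, 61590376 to 61593692) had 738, 780 and 775 counts and then 759, 742 and 692. Its log2 fold change was near 0 with a 95% interval of -0.17 to 0.18 (adjusted p = 0.96), and the sign turned under other scalings. Hoxd4 had 89, 87 and 82 counts and then 63, 56 and 92, which overlap (log2 fold change -0.22, 95% interval -0.72 to 0.28). The row of Mir10b lies inside Hoxd4 and held 2 counts at most. Hoxd10 and Hoxd11, which pattern the hindlimb and the forearm, were lower by 0.72 and 0.90 on the log2 scale (adjusted p = 0.0037 and 0.0024), below the fold limit. Hoxd8 had 82, 95 and 77 counts and then 143, 155 and 155, a log2 fold change of 0.90 (SE 0.16, adjusted p = 3.5e-04), also below it. The ratio of Hoxd8 to Hoxd9, which are 5023 bases apart, went from 0.177–0.230 to 0.384–0.422.

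In cluster c the 6 genes tested passed the adjusted p in the fit to all libraries, 1 upward and 5 downward, and 2 of them passed the fold limit. Hoxc6, a thoracic gene, was the one with higher counts, 132, 127 and 138 and then 199, 230 and 186, with a log2 fold change of 0.70 (SE 0.14, adjusted p = 8.3e-04). Hoxc5, only 2603 bases away, fell, and the ratio of Hoxc6 to Hoxc5 went from 1.40–2.03 to 5.85–8.85. Hoxc4, at the other end, had 232, 240 and 203 counts and then 114, 112 and 112, a log2 fold change of -0.93 (SE 0.14, adjusted p = 8.0e-05). Hoxc10, a lumbar and hindlimb gene, had 312, 263 and 341 counts and then 230, 245 and 238, a log2 fold change of -0.29 (adjusted p = 0.045). The adjusted p of Hoxc10 was 0.058 with DESeq2, 0.071 with the replicate block, 0.053 without the filter on low counts, 0.12 and 0.17 without TNF-α replicates 1 and 3, and 0.083 and 0.069 without TNF-α+EMO replicates 1 and 2. Of the remaining members tested, Hoxb2, a hindbrain gene, had a log2 fold change of -0.34 (adjusted p = 0.076), though its groups did not overlap.

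**Figure D4:**
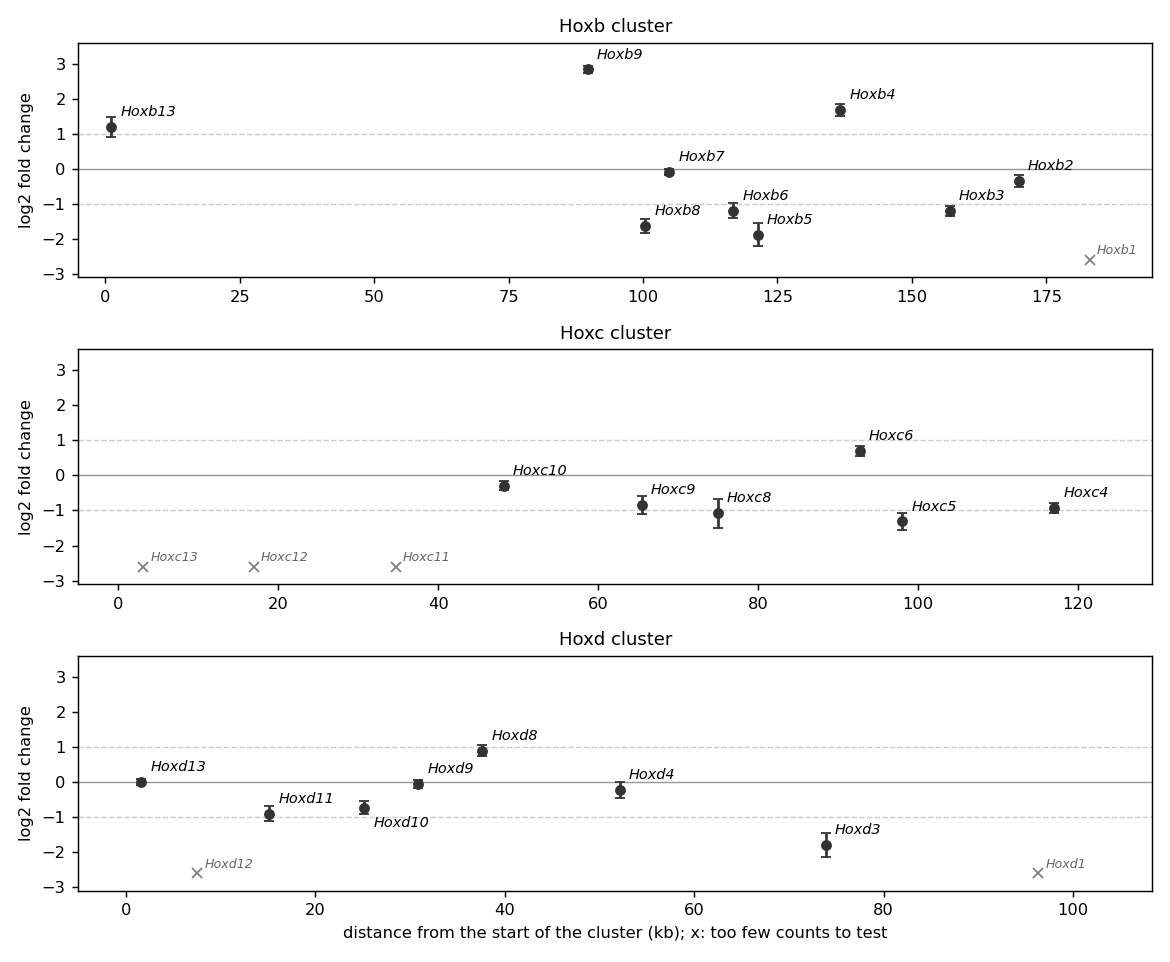
Log2 fold change (points, bars for the standard error) against distance in kb from the start of clusters b, c and d in the deposited coordinates. Crosses at the bottom mark genes with too few counts to test, and dashed lines mark a log2 fold change of 1 in either direction. Higher and lower genes lie between each other along cluster b, where Hoxb9 at 2.84 is followed by Hoxb8 at -1.64.

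The order of the members by level changed with these shifts. Levels are compared between genes as CPM per kilobase. With TNF-α the highest were Hoxb7 (31.5 ± 0.92, SD, n = 3), Hoxd13 (17.5 ± 0.46), Hoxb6 (16.3 ± 2.06), Hoxd9 (12.9 ± 1.91) and Hoxb9 (12.7 ± 1.25). Hoxd13 and Hoxb6, and Hoxd9 and Hoxb9, were within their spread of each other. With EMO the highest were Hoxb9 (90.8 ± 6.37), Hoxb7 (29.6 ± 1.87), Hoxd13 (17.6 ± 0.94), Hoxd9 (12.5 ± 0.75) and Hoxd8 (10.8 ± 0.44). Hoxb6 went from rank 3 to 9 of 24, Hoxb8 from 8 to 16 and Hoxb4 from 18 to 8. Across the 21 members expressed in both groups Spearman's rho of the levels was 0.71, beside 0.78 across all 11502 such genes, as a description over genes that share the same libraries.

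Summed over the members, normalized counts were 4206–4507 with TNF-α and 4862–5197 with EMO. Without Hoxb9 they were 4002–4283 and 3517–3660, so the direction of the sum turned on that gene. Paralog groups 9 to 13 held 46.0–48.0% of HOX counts with TNF-α and 61.0–63.2% with EMO, and 43.6–45.4% and 44.7–48.1% without Hoxb9. Groups 1 to 3 held 11.5–11.7% and then 4.54–5.68%, and without Hoxb9 12.0–12.3% and 6.28–8.07%. Groups 4 to 8 held 40.2–42.4% and then 31.6–33.3%, and without Hoxb9 42.3–44.3% and 45.0–47.3%, so that their direction turned. The lower share of the anterior class thus stood with and without Hoxb9, while the ranges of the posterior class overlapped without it. Most of the anterior counts were of Hoxb3, with 7.30–7.94% of HOX counts with TNF-α and 2.44–3.23% with EMO. Hoxb2 and Hoxd3 also held lower shares with EMO. Cluster b went from 42.5–43.6% to 54.4–58.7%, and cluster c from 17.7–19.5% to 11.9–13.4%. Without Hoxb9 the ranges of both overlapped between the groups, at 39.6–41.0% and 36.4–41.3% for cluster b and 18.5–20.5% and 16.9–18.8% for cluster c. Cluster d then went from 37.2–39.5% to 39.9–43.2%, although with Hoxb9 counted it went from 35.3–37.9% to 28.1–31.1%.

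Cluster a could be read only in part. By name or description 27 deposited rows stood for its 11 genes, 16 on chromosome 4 and 11 on an unplaced scaffold, and each gene had more than 1 row, whereas RefSeq on GRCr8 lists 1 of each. Near-identical copies share reads, and how such reads were counted is not given in the sources used here, so HOXA levels are uncertain. The largest count among the 27 rows was 116. Of the 15 rows among the members, 2 were tested, Hoxa4 and a chromosome 4 row of Hoxa11. The latter had 76, 23 and 33 counts and then 22, 14 and 36, which overlap (log2 fold change -0.81, adjusted p = 0.15), and the value rests on single libraries. It was -0.15 without TNF-α replicate 1 (adjusted p = 0.77) and -1.22, called lower, without TNF-α+EMO replicate 3.

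Summing the rows of each HOXA gene, an alternative chosen after the data were seen, brought Hoxa10 into view. Hoxa10, a lumbar, limb and uterine gene, had 118, 22 and 50 counts and then 7, 7 and 13. Nearly all of them were in a row named Hox-A10-like, so it is no member by name. Summed in this way, Hoxa10 met the rule of at least 10 counts with TNF-α alone, a difference that the member code above leaves out. The summed log2 fold change was -2.73 (SE 0.63, adjusted p = 0.0033). The summed Hoxa11 had 79, 26 and 40 counts and then 36, 21 and 39, and was not called. TNF-α replicate 1 held the highest count of both genes. The summed Hoxa2, a hindbrain gene, had 1 count or fewer in every library.

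Of 8 TALE cofactors analysed here, which bind DNA with HOX proteins, 6 were tested, with 0 higher and 2 lower, beside 19.5% higher and 27.8% lower over all genes, and a median log2 fold change of -0.70. Meis1, a marker of the proximal limb, had 1060, 1103 and 1101 counts and then 145, 126 and 99, a log2 fold change of -3.07 (SE 0.12, adjusted p = 1.7e-09). Meis2, its close relative, fell by 1.24 on the log2 scale (adjusted p = 1.8e-05). Pknox1 had a log2 fold change of -0.44 (adjusted p = 6.6e-04). Pbx2 (-0.18), Pbx3 (0.21) and Pbx4 (-0.96) did not pass the adjusted p. Pknox2 had 8, 9 and 16 counts and then 0, 1 and 0, and Meis3 0 to 4, both untested.

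Other factors that mark position along the limb and trunk gave 13 tested of 29, with 0 higher and 7 lower and a median log2 fold change of -1.04. Beside this list and the head list below stand 19.5% higher and 27.8% lower over all genes. The 7 were Prrx1 (-4.06), Twist2 (-3.49), Prrx2 (-3.0), Tbx18 (-1.93), Twist1 (-1.25), Msx1 (-1.12) and Tbx3 (-1.04), all of them genes of limb or skeletal mesenchyme. Tbx5 and Pitx1, which mark the forelimb and the hindlimb, were at 0 in all libraries and Tbx4 at 0 to 4. Other early limb field factors were detected in every library, Hand2 at 31 to 75 and Isl1 at 24 to 55 counts, and neither was called. Of 14 homeobox factors of the HOX-free head, 3 were tested and 2 were lower, Dlx1 (-3.97) and Dlx2 (-3.45). Cdx2, an activator of HOX genes in the embryonic trunk and the only tested gene of 11 HOX-linked ones, had 1599, 1418 and 1549 counts and then 384, 416 and 485 (log2 fold change -1.76, SE 0.10, adjusted p = 1.9e-08).

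**Figure D5:**
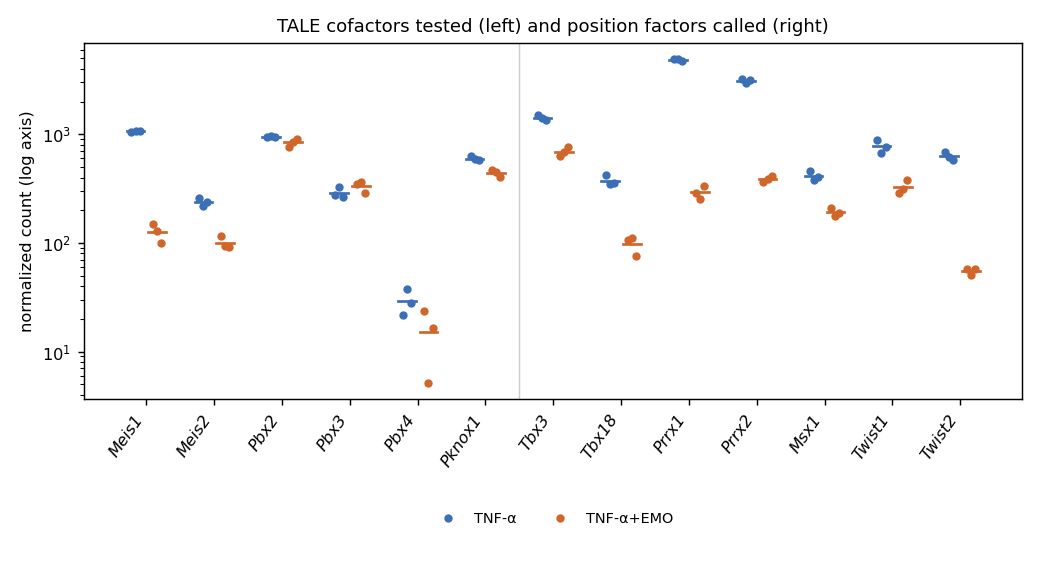
Normalized counts per library (points, log axis) and group means (lines) of the 6 TALE cofactors tested, left of the vertical line, and the 7 limb and trunk position factors called, right of it. Meis1 shows the widest gap among the cofactors, while the Pbx3 values of the groups overlap.

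The lists of regulators that set and keep HOX expression held calls in both directions, as all genes did. Of 30 Polycomb genes tested, which silence HOX genes, 4 were higher and 9 lower, with a median log2 fold change of -0.31. Among the most abundant called, Rybp (-1.28), Phc2 (-1.46), Cbx6 (-2.03) and the methyltransferase Ezh2 (-1.74) fell. Of 13 Trithorax genes, which keep them active, 1 was higher, the methyltransferase Dot1l (1.09), and 3 were lower, Kmt2a (-2.29), Psip1 (-2.29) and Kmt2b (-1.29). In the retinoic acid pathway, an inducer of anterior HOX genes, 9 were tested, with 2 higher and 5 lower and a median of -1.03. The receptors Rara (-1.24), Rarg (-1.03) and Rxra (-2.13) fell and Rxrb (1.03) rose. Beside these lists stand 19.5% higher and 27.8% lower over all genes. The Polycomb and Trithorax counts were near or below these shares, while the 5 of 9 lower in the retinoic acid list lay above. No list was tested as a set.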

How the data were processed

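Counts per gene, the deposited unit used here, were made by the authors from paired-end, poly(A)-selected libraries of rat RA-FLS and are raw, without normalization. Per the labels' processing notes, FastQC, Trimmomatic and HISAT2 (version 2.0.5 in the methods) were used with Rnor_6.0. The counting program, its strand setting and the annotation version are not given in the sources used here. FPKM values (scaled by the authors to length and mapped fragments) and the columns of the comparison the authors deposited (a group mean score of scaled counts, log2 fold changes and p-values) were not used.

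A row was tested where 3 or more libraries held 10 or more counts (13614 of 34156 rows) with edgeR 4.0.16 in R 4.3.3, using TMM scaling, a robust quasi-likelihood fit on the group alone and Benjamini-Hochberg adjustment. The standard error is the size of the log2 fold change divided by the square root of F. Normalized counts are scaled to the mean effective library size. The fit was tested on simulated data. DESeq2 1.42.0, other scalings, filters and thresholds, a replicate block and leaving out each library were alternatives. The libraries held 16813322 to 17794455 counts, and a floor of 3 counts covers counting error only. The smallest exact permutation p with 3 against 3 is 0.1, so p-values rest on edgeR's pooled spread. The study's methods name 3 biological replicates per condition. Neither they nor the labels say whether these were separate cultures of the line, so p-values measure the spread between these libraries. The HOX genes and all lists were chosen with earlier results of these data known. Named were HOX genes, every TALE cofactor tested and analysed here, every limb and trunk factor called, up to 4 called genes of largest mean count in other lists, and rows in or within 500 kb of a cluster could be named from a mean of 100 counts; those called are. A few other rows inside the clusters, the most abundant or called cell type markers, Hand2 and Isl1 were named after their values were seen. Col1a2 and Pecam1 of the marker lists were not analysed here. A few individual genes are not reported here.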

Additional observations from a re-analysis of the deposited data

How the results depend on the processing

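Of 311 values of single members under the alternatives, 293 kept their direction and call, 4 gained and 6 lost the call, and 8 turned direction. The turns were of values near 0. The log2 fold change of Hoxd13 was -0.0067 with DESeq2's size factors in edgeR and with DESeq2, -0.037 with upper quartile scaling, -0.11 with library totals only and -0.034 to 0.040 without single libraries. That of Hoxd9 was -0.15 to 0.065 without single libraries, above 0 only without TNF-α replicate 1. With library totals only, Hoxc4 (-1.04) and Hoxd11 (-1.01) passed the fold limit. The median over the members was -0.65 with library totals only, -0.72 with edgeR's own expression filter, which left Hoxa4 untested, and -0.43 with HOXA rows summed, an alternative chosen after seeing the data. The cause was not tested. Above an absolute log2 fold change of 2, 1 member was called, 1 higher (Hoxb9) and 0 lower. Leaving out each library in turn gave 10 to 11 members called, 3 to 4 higher and 6 to 8 lower, 16 to 20 past the adjusted p and a median of -0.60 to -0.32. It gave 23 members expressed with TNF-α throughout, 22 to 24 with EMO and 21 to 23 in both.

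Same-numbered libraries showed little shared deviation (correlations 0.0095, -0.0067 and 0.080, with 2 of 3 TNF-α libraries closest to their own number). With 3 libraries a group this check cannot exclude that the samples were paired. With the replicate block 10 members were called, 4 higher and 6 lower, 16 passed the adjusted p, the median was -0.53 and the pathway lists held 36 calls, as without it. Depth limits the low members, above all the HOXA genes and Hoxd12.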

Other observations

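Rows that are no HOX gene by name also lay inside the clusters. An unnamed row of the authors' between Hoxc10 and Hoxc9 (chromosome 7, 144585931 to 144592252) had 367, 364 and 325 counts with TNF-α and 47, 53 and 55 with EMO. It was lower with a log2 fold change of -2.70 (SE 0.14, edgeR adjusted p = 1.2e-08), against -0.29 for Hoxc10 and -0.84 for Hoxc9. A second unnamed row, on the minus strand between Hoxd12 and Hoxd11 (chromosome 3, 61600107 to 61602062), had 33, 35 and 25 counts and then 9, 7 and 9. It passed the filter for testing through the TNF-α libraries alone, so no test is given for it, and it was chosen after its values were seen. The 8 microRNA rows inside the clusters held 2 counts at most, in libraries made from poly(A) RNA.

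Outside the clusters, 80 rows lay within 500 kb, of which 37 were tested, with 11 higher and 5 lower. Beside these and the counts of each cluster below stand 19.5% higher and 27.8% lower over all genes. Around cluster b, 8 of 15 were higher and 1 lower, with a median log2 fold change of 1.02, beside 19.5% higher over all genes. Some of the 8 passed the filter through the EMO libraries alone, and the 1 lower through the TNF-α libraries alone. The filter favoured these calls, and an excess around cluster b was not tested. Of these 15, with log2 fold changes in parentheses, Snx11, a sorting nexin (1.79), Phospho1, a phosphatase of bone mineralization (2.21), Atp5mc1, a subunit of ATP synthase (1.38), and Snf8, an endosomal sorting protein (1.02), were higher with a mean of at least 100 counts. Snx11 had 436, 430 and 462 counts and then 1267, 1420 and 1687. Around cluster c, 2 of 15 were higher, Smug1 (2.12) and Tarbp2 (1.45), and 4 were lower, among them Itga5, a fibronectin receptor subunit (-2.09), Cbx5 (-1.68) and Zfp385a (-1.02). The remaining lower row there passed the filter through the TNF-α libraries alone. Around cluster a, Tax1bp1 was higher (1.53), and around cluster d neither of the 2 rows tested was called.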
